A study of Homo sapiens with 6 samples.

Results

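The TTL and TTLL genes encode the tubulin tyrosine ligase and its relatives, enzymes that attach amino acids to the C-terminal tails of tubulin. The members were the rows of the authors' gene table with the symbols TTL, TTLL1, TTLL3, TTLL4, TTLL5, TTLL6, TTLL7, TTLL9, TTLL11 and TTLL12. They are 10 of 19830 genes in the table, and all 10 were among the 14063 genes for which the authors gave an adjusted p-value, called tested here. RNA was measured in PANC-1, an established cell line from a human pancreatic ductal adenocarcinoma, with 2 libraries of cells given siRNA against SOX9 and 2 of cells given a control siRNA. Each siRNA was used at 25 nM, and the cells were pooled and harvested after 48 hours. SOX9 is a transcription factor of pancreatic duct and progenitor cells. No other genetic change or treatment is named in the labels for either group, and both groups are the same cell line, so the libraries show this line rather than duct cells at large. The labels do not name separate cultures for the 2 libraries of a group, so the p-values reflect how far these libraries differ, a spread that may be technical.

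Tubulin carries chemical marks added after the protein is made, and their pattern is often called the tubulin code. TTL acts on soluble tubulin and puts a tyrosine back on the tail of alpha-tubulin after it has been removed. Most TTLL enzymes add glutamate, either starting a side chain or lengthening one, and TTLL3 adds glycine. Glutamate and glycine side chains are abundant on the axonemes of cilia and flagella, where they affect dynein motility, microtubule severing and the transport of cargo. The genes of cilia are commonly driven by RFX transcription factors, which bind a DNA element known as the X-box.

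Of the 10 members, TTLL9 rose with SOX9 siRNA, none fell, and 9 did not pass the test at an adjusted p under 0.05. Among all tested genes 0.868% rose and 0.939% fell, and 1.81% were called in either direction. The TTLL9 rise was about 4-fold, and the other 9 estimates lay between 79.3% of control for TTLL4 and 2.04-fold for TTLL6, none of them called. The median log2 fold change of the members was 0.19, beside -0.02 over all tested genes. The estimate was above 0 for 7 members and below 0 for 3 as deposited, and for 6 and 4 once centred on genes of like mean count, where TTLL11 turned to -0.09, while 47.9% of all tested genes were above 0. With members under a mean normalized count of 500 left out, the median of the 5 that remained was -0.13.

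**Figure D1:**
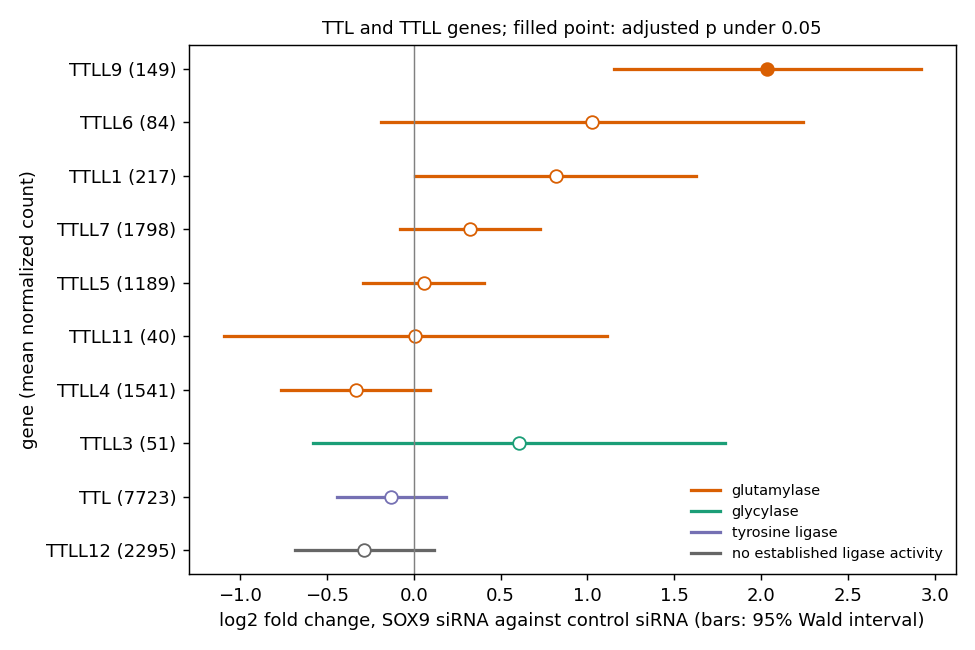
Log2 fold change of each TTL and TTLL gene, SOX9 siRNA against control siRNA (x axis), by gene with its mean normalized count over the libraries (y axis). Points are the authors' estimates and bars are 95% Wald intervals. Colours show the amino acid the enzyme adds, with a separate colour for TTLL12, which has no established ligase activity. The filled point, TTLL9 at 2.04, is the 1 gene with an adjusted p under 0.05.

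TTLL9 is the member with the measured change, so the DNA before its start is shown first, with the X-box as the element searched for. RefSeq promoter windows on GRCh38.p14 run from 250 bases before a gene's start to 50 after it, and they matched 9 of the 10 members, with TTLL4 not among them. The X-box was searched as GTNNCC, any 3 bases and then GNAAC, with N for any base, and its half-site as GTTGCC, both on either strand. No other spacing was searched, so a window without a match may hold a different form. TTLL9 has 2 listed starts on the plus strand of chromosome 20, and the window of the second one holds a full match. The bases before that start and on to the end of the match, chr20:31879567-31879819, are given 5′ to 3′ with the match in capitals.
TTLL9: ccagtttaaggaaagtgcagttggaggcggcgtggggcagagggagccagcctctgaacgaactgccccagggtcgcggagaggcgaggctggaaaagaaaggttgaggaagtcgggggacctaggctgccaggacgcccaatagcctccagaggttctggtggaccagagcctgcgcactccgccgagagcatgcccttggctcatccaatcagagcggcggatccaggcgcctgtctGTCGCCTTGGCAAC

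This match runs from 11 bases before the start to base 3 after it. A match to the full X-box form was found in 2.28% of all 35116 promoter windows. Counted per gene, with a match in any window enough, it was in 3.47% of tested genes with a window. Among the 9 members with a window it was in 1. The half-site GTTGCC was found in 12.2% of windows. Per gene it was in 17.0% of tested genes with a window and in 5 members, TTLL1, TTLL5, TTLL6, TTLL9 and TTLL11. In TTLL9 it is the right side of the full match, read on the opposite strand, so the 2 searches overlap there. The half-sites of 4 members are set out below for comparison with TTLL9, each on its gene's strand with the half-site or its reverse complement in capitals.
TTLL1, chr22:43089438-43089467, minus strand: gtcgcgtcctggGTTGCCagggcgccgccc
TTLL5, chr14:75660996-75661017, plus strand: agcgGTTGCCgctgcctaagcc
TTLL6, chr17:48794348-48794377, minus strand: atgacttgtgatGGCAACacagacagtgtg
TTLL11, chr9:122093259-122093286, minus strand: ctgagcgatcatGGCAACgggctcgggc

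The half-site lies at bases -64 to -59 in TTLL1, -246 to -241 in TTLL5 and -31 to -26 in TTLL6, counted from the start, and at bases 35 to 40 after the start in TTLL11. For TTLL6 the window is that of the more downstream of 2 listed starts. The SOX core ACAATG, searched on both strands, was found in 10.8% of windows. Per gene it was in 8.91% of tested genes with a window and in 0 of the 9 members, too few members to tell a share that low from 0. No other form of the SOX core was searched, so a window without a match may hold a different one. Of the 5 members with a half-site, TTLL9 was called and 4 were not. A match describes letters in a window only, and no binding data were analysed here.

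Among the 7 glutamylases the median log2 fold change was 0.32, with 6 estimates above 0 and 1 below. TTLL9, which acts on the axonemes of cilia and of sperm flagella, had a mean normalized count of 149 by the authors' deposited table. With the groups of equal size, this mean and the fitted ratio imply about 58.6 normalized counts in control and 240 in SOX9 siRNA libraries, as group values without a spread. TTLL9 rose 4.10-fold by the authors' deposited table, a log2 fold change of 2.04 with a standard error of 0.45 and a 95% interval from 2.23-fold to 7.56-fold (DESeq2 adjusted p 0.00198). By p it ranked 43 and by upward fold change 11 among the tested genes. The tested genes were put into 10 bins of equal size by mean count, and of the 1406 genes in the bin of TTLL9, 99.64% had a lower log2 fold change, and 14 of them rose. Its interval lies wholly above those of TTL, TTLL4, TTLL5, TTLL7, TTLL11 and TTLL12 and overlaps those of TTLL1, TTLL3 and TTLL6, and the differences between members were not tested. Against a change of 1.5-fold rather than of 0, TTLL9 did not pass, with an adjusted p of 0.989 and an unadjusted p of 0.00127.

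TTLL9 shares DNA with 2 neighbours in RefSeq's gene order, both on the opposite strand. DUSP15, a phosphatase gene that overlaps the first start of TTLL9, had a log2 fold change of 0.30 with a standard error of 0.64 by the authors' deposited table (DESeq2 adjusted p 0.944). PDRG1, whose end overlaps the end of TTLL9, had a log2 fold change of -0.96 with a standard error of 0.32 by the authors' deposited table (DESeq2 adjusted p 0.1). The PDRG1 estimate thus has the opposite sign to that of TTLL9. A strand setting for the authors' counting is not given in the sources at hand, so reads of the overlapping stretches cannot be assigned to one gene with certainty.

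TTLL6 and TTLL1 had the next highest estimates of the family, and neither passed the test. TTLL6 lengthens glutamate chains, in cilia among other places. In the authors' deposited table it had a mean normalized count of 84.2 and stood at 2.04-fold (95% interval 0.877 to 4.73, DESeq2 adjusted p 0.576), which implies about 55.5 counts in control and 113 in SOX9 siRNA libraries. TTLL1 is the catalytic subunit of a glutamylase complex that works on neuronal and axonemal microtubules. Its mean normalized count was 217 and its value 1.76-fold by the authors' deposited table (95% interval 1.01 to 3.09), which implies about 157 and 277 counts. The unadjusted p of TTLL1 was 0.0478 and its DESeq2 adjusted p 0.44 by the authors' deposited table. An unadjusted p under 0.05 was reached by 2 members, TTLL9 and TTLL1, and by 11.1% of all tested genes.

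The 3 glutamylases with more reads had smaller estimates, and their signs differed. TTLL7, which prefers beta-tubulin, stood at 1.25-fold by the authors' deposited table with a mean normalized count of 1798 (95% interval 0.946 to 1.66, DESeq2 adjusted p 0.609). TTLL4, which starts glutamate chains and also modifies proteins other than tubulin, stood at 79.3% of control by the authors' deposited table with a mean normalized count of 1541 (95% interval 58.9% to 107%, DESeq2 adjusted p 0.629). TTLL7 was above 91.18% of the tested genes of the bin they share, while TTLL4 was above 11.52% of them. TTLL5, another enzyme that starts chains, was at 1.04-fold by the authors' deposited table, with a mean normalized count of 1189 (95% interval 0.818 to 1.33, DESeq2 adjusted p 0.971). TTLL11, which lengthens chains and had few reads, had a log2 fold change of 0.01 by the authors' deposited table, with a count of 40.3 on average and a wide interval from 0.468-fold to 2.16-fold (DESeq2 adjusted p 0.999). A change as large as that of TTLL6 would lie inside the TTLL11 interval.

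TTLL3 was the member that adds glycine, and it was not called. Its mean normalized count was 50.7 and its value 1.52-fold by the authors' deposited table (95% interval 0.670 to 3.46, DESeq2 adjusted p 0.824). In RefSeq it also forms a readthrough gene with its upstream neighbour ARPC4, so some of its reads may not be its own, and its value is uncertain.

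TTL, the tyrosine ligase, had the smallest standard error of the family. Its mean normalized count was 7723 and its level 91.4% of control by the authors' deposited table (95% interval 73.5% to 114%, DESeq2 adjusted p 0.879). The implied group values are about 8068 counts in control and 7378 in SOX9 siRNA libraries. TTLL12, a family member for which no ligase activity has been established, stood at 82.1% of control by the authors' deposited table (95% interval 62.2% to 108%, DESeq2 adjusted p 0.68), with a mean normalized count of 2295. In 8 of the 10 members the interval included 0 on the log2 scale, the exceptions being TTLL9 and TTLL1.

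**Figure D2:**
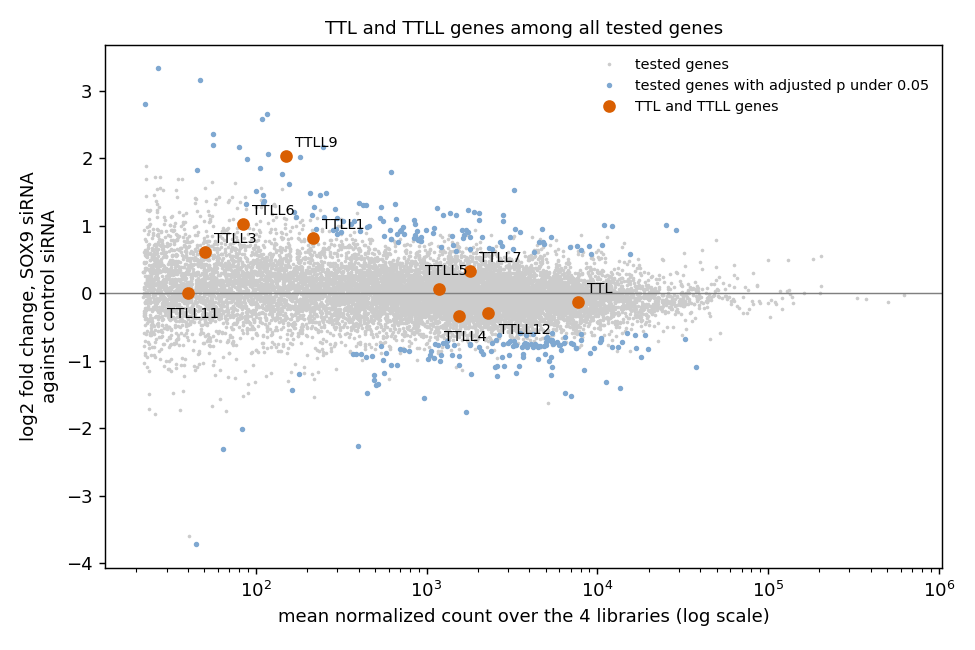
Mean normalized count over the 4 libraries (x axis, log scale) against the log2 fold change of SOX9 siRNA relative to control siRNA (y axis), 1 point per tested gene. The TTL and TTLL genes are labelled in orange and genes with an adjusted p under 0.05 are blue. At mean counts under 250, TTLL9, TTLL6, TTLL1 and TTLL3 lie above 0 and TTLL11 lies at 0.01; at mean counts over 1000, TTLL5 and TTLL7 lie above 0 and TTL, TTLL4 and TTLL12 below it.

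The members fell into 2 ranges of read number, which differed in the precision of the estimates. The 5 with mean normalized counts under 250, TTLL1, TTLL3, TTLL6, TTLL9 and TTLL11, had log2 fold changes from 0.01 to 2.04 and standard errors from 0.41 to 0.62. The 5 with counts over 1000, TTL, TTLL4, TTLL5, TTLL7 and TTLL12, had log2 fold changes from -0.33 to 0.32 and standard errors from 0.16 to 0.22, with TTLL5 and TTLL7 above 0 and the other three below. Over all tested genes the share of estimates above 0 also moved with the mean count, from 59.6% in the lowest bin to 35.2% in the highest. Its part in the members' estimates was not tested. Set against tested genes of their own bin, 6 members were above the median and 4 of these, TTLL1, TTLL6, TTLL7 and TTLL9, were above 90% of the genes. Counts are not scaled by gene length here, so they tell how many reads lie behind a value and do not order the members by abundance.

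The standard error sets the change that could have been called. The smallest absolute Wald statistic among called genes was 3.32, which for TTL corresponds to 1.45-fold or a fall to 69.1% of control. For TTLL4, TTLL5, TTLL7 and TTLL12 the needed rise was between 1.51-fold and 1.66-fold. TTLL9 needed 2.82-fold, TTLL1 needed 2.58-fold, TTLL11 3.65-fold, TTLL3 4.02-fold and TTLL6 4.16-fold. The 2.04-fold value of TTLL6 was therefore not detectable as a change at this precision, and the missed threshold does not show that TTLL1, TTLL3, TTLL6 or TTLL11 kept their level.

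**Figure D3:**
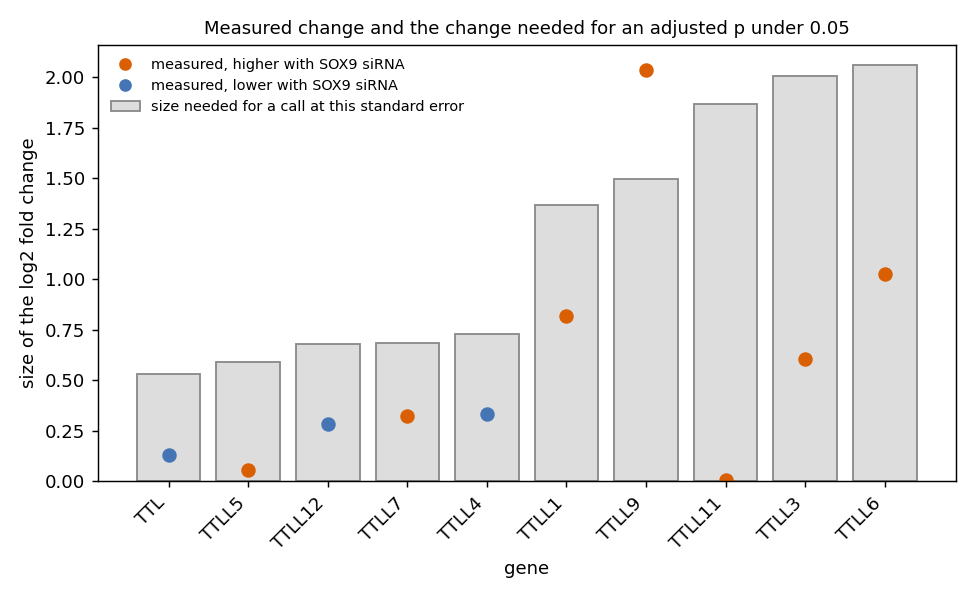
Size of the log2 fold change for each TTL and TTLL gene (y axis), with genes on the x axis ordered by the size needed for a call. Grey bars, which start at 0, are the change needed for an adjusted p under 0.05 at the gene's standard error, and points are the measured change, orange where higher and blue where lower with SOX9 siRNA. The TTLL9 point, at 2.04, is the 1 point above its bar, at 1.49.

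Of the family members outside the chosen rows, TTLL2, TTLL10 and TTLL13, listed as TTLL13P, were in the table with mean normalized counts of 2.91, 1.92 and 17.4. None of them was given an adjusted p-value by the authors. TTLL8, which also starts glycine chains, was not analysed here.

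The partners and opponents of these enzymes were taken from 6 lists, and 0 of their 25 tested genes were called, beside 1.81% of all tested genes. Their adjusted p-values were 0.339 or more by the authors' DESeq2 test. At an unadjusted p under 0.05 there were 2, CSTPP1 and AGBL2. The median log2 fold change over these genes was 0.04, with 13 above 0 and 12 below. The 5 partners of TTLL1 in its complex had a median of 0.22. CSTPP1, listed as C11orf49, had the smallest p of them, at 1.31-fold by the authors' deposited table (95% interval 1.01 to 1.71, DESeq2 adjusted p 0.423), and TPGS2, with the most reads, had a log2 fold change of -0.13.

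The deglutamylases, which trim the chains that TTLL enzymes build, had 4 tested genes of 6 listed and a median of 0.12. AGBL2 stood at 1.64-fold by the authors' deposited table (95% interval 1.06 to 2.55, DESeq2 adjusted p 0.339), and AGBL5, which removes the glutamate at branch points, had a log2 fold change of -0.14 there. The next list is of genes linked to removal of the tyrosine which TTL restores. Not all are established as enzymes that remove it, since the list also holds SVBP, a binding partner of the enzyme VASH1, and MATCAP2. The 4 tested genes of this list all had estimates above 0, with a median of 0.28, and 0 were called, beside 47.9% of all tested genes above 0. MATCAP2, listed as KIAA0895, had the most reads and the smallest p of them, at 1.21-fold by the authors' deposited table (DESeq2 adjusted p 0.688).

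The microtubule-severing proteins, some of which are drawn to glutamylated tubulin, had 8 tested genes, all with estimates below 0, a median of -0.20 and 0 called. Among all tested genes 47.9% had estimates above 0 and 1.81% were called, and the signs of this list were not tested as a set. Centred on genes of like mean count, 7 of the 8 were below 0 and SPAST was at 0.006. FIGN, with the smallest p, stood at 65.8% of control by the authors' deposited table (95% interval 39.4% to 110%, DESeq2 adjusted p 0.596), and SPAST, with the most reads, had a log2 fold change of -0.06. The deacetylases of tubulin, HDAC6 and SIRT2, had log2 fold changes of 0.06 and -0.05 by the authors' deposited table, both above 0 once centred on genes of like mean count, and the acetylase ATAT1 was not analysed here. CEP41, which carries TTLL6 to cilia, had a log2 fold change of 0.14, with 0.10 for RAB11FIP5 by the authors' deposited table.

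**Figure D4:**
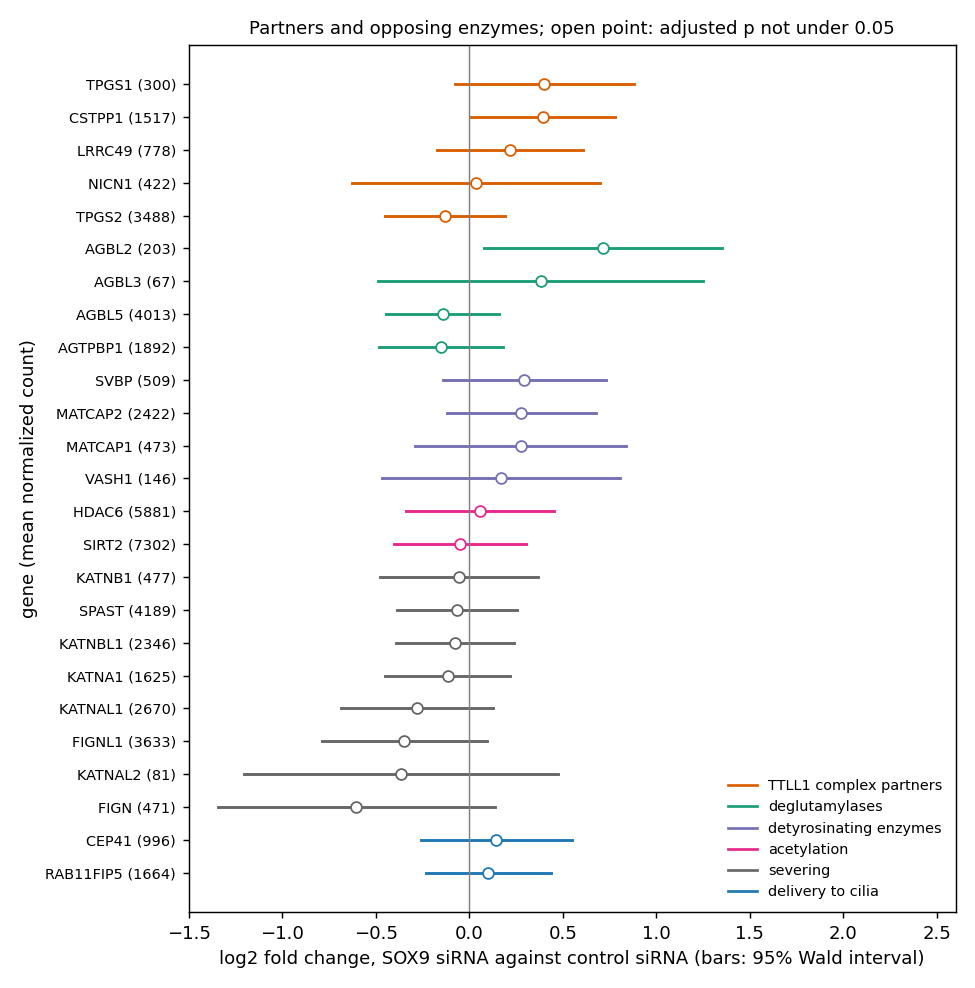
Log2 fold change of SOX9 siRNA against control siRNA (x axis) for 25 tested genes that work with or against the TTL and TTLL enzymes (y axis, mean normalized count in brackets), coloured by list, with 95% Wald intervals as bars. All points are open because no adjusted p was under 0.05, and the 8 severing genes lie below 0 as deposited, with SPAST above 0 once centred on genes of like mean count.

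SOX9 itself had a log2 fold change of -0.84 with a DESeq2 adjusted p of 0.0643 by the authors' deposited table, and every direction here was read from that sign, since the header does not name the numerator. It is therefore no check of the labels. All 7 duct markers analysed were tested and 1, EPCAM, was called, with a log2 fold change of -1.76 (DESeq2 adjusted p 1.85e-05). The duct markers include SOX9 itself. Their estimates were above 0 for 5 and below 0 for 2, EPCAM and SOX9, with a median log2 fold change of 0.50. The sign of SOX9 was set by the reading above, so it adds nothing to that count. The keratins KRT8, KRT18 and KRT19 had mean normalized counts from 99583 to 203350 and log2 fold changes of 0.55, 0.50 and 0.50 by the authors' deposited table, with DESeq2 adjusted p-values of 0.0786, 0.106 and 0.259. The other keratin of the list, KRT7, had a mean normalized count of 354 and a log2 fold change of 0.06 (DESeq2 adjusted p 0.976). CDH1 was at 0.63 with a standard error of 0.77. Markers of multiciliated cells had 5 tested genes of 8 and 0 called, with log2 fold changes from -0.37 for TP73 to 0.93 for FOXJ1, whose mean normalized count was 29.7 and DESeq2 adjusted p 0.89 by the authors' deposited table. Genes of the axoneme itself were not among these 8 markers, so the count of 0 called does not extend to them. The analysed markers that define leukocytes, endothelium, acinar and endocrine cells had mean normalized counts up to 3.87, and none was tested. Of 4 fibroblast markers COL3A1 was at 322 and PDGFRB at 32.0, with LUM and DCN at 1.72 and 4.37, and 0 were called. As these are bulk libraries, a higher level per cell and more cells of a kind cannot be told apart.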

How the data were processed

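RNA of PANC-1 cells with SOX9 siRNA or control siRNA, 2 libraries each, was compared. HISAT2 2.0.5, featureCounts and DESeq2 1.18.1 are named in the submitters' processing notes, without settings. The notes list builds without a role, and the file has no coordinates. Per the file headers, the deposited table holds for each gene the mean normalized count, a signal averaged over the libraries after size-factor scaling by the authors. It also holds the authors' log2 fold change and standard error, their Wald score, and their p-value and adjusted p-value. No values per library are in it, so depth per library, replicate spread and a count test were not obtained. The SOX9 ChIP-seq libraries were not analysed here.

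Adjusted p-values were given for 14063 genes. The other 5767 had mean normalized counts of 21.93 or less. Adjustment by Benjamini-Hochberg over these genes matched the deposited values to within 9.4e-15. A call was an adjusted p under 0.05. Intervals are 1.96 standard errors each way. Group values were implied from the mean and the ratio, assuming that the groups weigh equally.

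The members and lists were chosen with earlier results of these data known, and the sequence motifs after the values were seen. All members were named, with SOX9, the neighbours of the called member and, in each partner list, any called gene and those with the smallest p and the highest mean count. Some genes of the lists are not reported here. Older symbols of the members and lists were matched through RefSeq, used only where they are no current symbol. Promoter windows were matched by the deposited symbol only. Promoters are RefSeq's on GRCh38.p14. Alternatives were other thresholds, mean count minimums, adjustment over every gene, centring, an empirical null and a test against 1.5-fold. The Wald p-value and Benjamini-Hochberg steps were tested on simulated fold changes, and the other steps were not. Python 3.11.15, pandas 2.3.3 and scipy 1.17.1 were used.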

Additional observations from a re-analysis of the deposited data

How the results depend on the processing

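TTLL9 was called and the other 9 members were not under 2 other thresholds on the adjusted p (0.1 and 0.01), adjustment over every gene, mean count minimums of 50 and 100, both kinds of centring and the empirical null. Its adjusted p ranged from 0.00175 to 0.0169 where it was recomputed under these. The count of called members was 0 in the test against a 1.5-fold change, where 3 genes of the whole table passed and TTLL9 had an adjusted p of 0.989, and 0 at a mean count of at least 500, a minimum that leaves TTLL9 out. At that minimum the median log2 fold change of the members was -0.129, against 0.191 with all 10, and it was 0.325 and 0.0582 at minimums of 50 and 100. The log2 fold change of TTLL11 turned from 0.0093 to -0.0866 when centred on genes of like mean count, and no other member changed sign under either centring. The number of genes called in the whole table was 96 with the empirical null, against 254. No paired analysis was possible because the table has no values per library, and leaving out a library or refitting counts was not run for the same reason. Depth limits the members with mean counts under 250 most.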

Other observations

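The X-box letters found at the second start of TTLL9 were also counted in the promoter windows of all tested genes, as a description without a test. TTLL9, whose match prompted the count, is among the genes that rose and held it. RefSeq windows were matched by symbol to 10144 tested genes, and 352 of these, 3.47%, held GTNNCC, any 3 bases and GNAAC on either strand in at least 1 window. Older symbols were not matched at this step. A window was found for 88 of the 122 genes that rose and for 83 of the 132 that fell. Among the 88, 13 held the X-box form, which is 14.8%, and among the 83, 3 did, which is 3.61%. Whether the genes without a window differ was not tested. The half-site GTTGCC was in 25.0% of the genes that rose, 14.5% of those that fell and 17.0% of all tested genes with a window. The SOX core ACAATG was in 5 of the 88, 10 of the 83 and 904 of the 10144 in the same order. Genes differ in the number of windows they have, and the base composition of the windows was not matched.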
